A study of Homo sapiens with 12 samples.

Results

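Type I interferon response genes were followed on 12 Affymetrix HG-U133 Plus 2.0 arrays of the human cell line U937, which derives from a histiocytic lymphoma and has monocyte features. The set was a list of 46 genes known to take part in or respond to interferon signalling: the receptor chains, interferon regulatory factors, RNA sensors, the ISG15 conjugation genes and the antiviral effectors. A probe set counted for a member when the platform annotation gave it that gene alone, and a gene with several such probe sets was represented by the brightest on average. In this way 45 of the 46 members were measured, out of 19775 genes in all; the remaining member, STAT2, was not measured here.

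All cells were a stably transduced U937 line under puromycin, carrying 1 TRIPZ Tet-On cassette design whose hairpin is directed against ZXDC, the gene of the zinc finger proteins ZXDC1 and ZXDC2. The 4 groups, with 3 arrays each, were PMA with doxycycline, PMA, vehicle with doxycycline, and vehicle. PMA, a phorbol ester that activates protein kinase C and induces a macrophage-like phenotype in this line, was used at 100 nM for 3 days, and the vehicle was 0.1% DMSO. Doxycycline, which switches the hairpin on, was added every day (0.5 µg/mL, 4 days), with the first 2 days before PMA or vehicle. How these 4 days fit with 2 days before and 3 days of PMA or vehicle was not resolved here. No group with a non-targeting hairpin was analysed here, so that effects of doxycycline itself and of the hairpin cannot be told apart. The labels call the 3 arrays of a group biological replicates and number them from 1. Whether the transduced line was grown from a single cell is not given in the sources used here.

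In the textbook account, type I interferons bind a receptor of 2 chains, IFNAR1 and IFNAR2, and the kinases JAK1 and TYK2 then activate a transcription factor complex that contains IRF9. This complex binds the interferon-stimulated response element, a DNA sequence with a repeated GAAA core, in front of many genes. Among their products are the IFIT proteins, which bind viral RNA, the OAS enzymes, which switch on an RNA-degrading enzyme, and IRF7, which amplifies interferon production. Macrophages are both producers and targets of these cytokines.

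Stretches of 6 promoters are shown because they hold the repeated GAAA core in genes that moved in opposite directions after PMA: they belong to the called members of largest PMA difference that had a match before the start site. The letters GAAA, any 2 bases and GAAA again were searched on both strands of RefSeq promoters (GRCh38.p14, 250 bases before to 50 after the gene's start), and overlapping matches were each counted. Capitals mark the matches, a run of capitals longer than the motif holds overlapping ones, and each stretch is written 5′ to 3′ on the gene's strand.
IFI6 (chr1:27672261-27672363, minus strand): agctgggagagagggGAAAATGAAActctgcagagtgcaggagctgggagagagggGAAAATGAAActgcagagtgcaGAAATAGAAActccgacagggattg
IFIT3 (chr10:89327826-89327899, plus strand): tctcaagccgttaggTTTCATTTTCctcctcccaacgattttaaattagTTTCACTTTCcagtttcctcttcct
ISG15 (chr1:1013369-1013414, plus strand): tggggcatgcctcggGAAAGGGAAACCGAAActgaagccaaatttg
IFIT5 (chr10:89414508-89414567, plus strand): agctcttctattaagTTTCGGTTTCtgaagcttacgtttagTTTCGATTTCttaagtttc
IFITM1 (chr11:313985-314024, plus strand): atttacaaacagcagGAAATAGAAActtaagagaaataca
HERC5 (chr4:88456979-88457069, plus strand): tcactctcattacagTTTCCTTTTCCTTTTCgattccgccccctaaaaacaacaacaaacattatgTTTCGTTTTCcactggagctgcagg

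In IFIT3, IFIT5 and HERC5 the matches lie on the opposite strand, so they read TTTC. The table held promoters of 34 members, and 22 of these (64.7%) had a match, against 1195 of 27305 genes (4.38%) and 1255 of 35116 promoters (3.57%). OAS1, the member of largest PMA difference, had no match in its promoter. Nor had IRF9, RIGI, IRF1 and IFNAR1, which were also called higher without doxycycline. A match is a description of the letters and no measure of binding.

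The 4 arrays numbered 1 stood apart. Their ACTB control probe sets had a 3′ minus 5′ signal, a measure that grows as RNA or labelled product shortens, of 1.99 to 2.72 (log2), above the 0.71 to 1.64 of the other 8 arrays. The same measure for GAPDH was 0.17 to 0.25 on the arrays numbered 1 and 0.12 to 0.25 on the others. Signal medians over all probe sets lay between 5.16 and 5.22 (log2). The targeted gene ZXDC was lower with doxycycline in 6 of 6 same-numbered pairs, with a mean difference of -0.50 (log2) over both agents (exact permutation within agents, two-sided p = 0.005, the smallest that 400 relabelings can give). In the limma fit without pairing used below, 0 genes were called lower with doxycycline in PMA or in vehicle. ZXDC itself therefore did not pass in that fit. The 8 myeloid markers measured ran from 3.64 to 13.61: ITGB2, LYZ and PTPRC were bright, and MPO, SPI1 and, in vehicle, CD14 were dim. Markers of other cells reached 5.53 (T cell), 5.85 (epithelial), 6.35 (B cell), 7.52 (fibroblast), 9.56 (plasmacytoid dendritic cell, TCF4), 10.96 (NK cell, NKG7) and 12.78 (endothelial, PECAM1). After PMA without doxycycline, CD14, CSF1R and ITGB2 of the myeloid list rose by 2.21, 1.99 and 1.95 (log2), VWF and PECAM1 of the 4 endothelial markers by 6.93 and 3.32, IL3RA of the 5 plasmacytoid markers by 1.07 and NCAM1 of the 4 NK markers by 0.65, while TCF4 fell by 1.75. CD14 had 4.99, 6.84 and 6.92 in PMA with doxycycline and 4.67, 6.80 and 6.74 in PMA, against 4.23, 4.49 and 3.64 in vehicle with doxycycline and 4.02, 3.89 and 3.67 in vehicle, so the arrays numbered 1 were the lowest of each PMA group in CD14 too. The part of these markers in the results was not tested.

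The first question was what PMA did to the interferon response genes. Without doxycycline, 16 of the 45 members rose and 4 fell in PMA against vehicle (limma, Benjamini-Hochberg adjusted p under 0.05, two-sided), and 25 did not pass. Over all genes, 31.7% passed, 12.7% as higher and 18.9% as lower. With doxycycline 14 members rose, 4 fell and 27 did not pass, against 32.5% of all genes called, 13.0% higher and 19.5% lower. The median log2 difference of the members was 0.60 without doxycycline and 0.51 with it, while the median of all genes was 0.01 and -0.01. The 18 members called with doxycycline were also called without it, and IFIT5 and RIGI were called only in the comparison without doxycycline. That these 2 differ between the comparisons was tested by the interaction, which they did not pass. Single arrays moved these counts: without doxycycline 27 rose and 2 fell when PMA replicate 1 was left out, and 9 rose and 4 fell without PMA replicate 2. With doxycycline 26 rose and 3 fell without replicate 1 of PMA with doxycycline, and 8 rose and 4 fell without its replicate 2. Leaving out an array changes the estimated spread of every gene, and the shares of all genes called under these settings are not given here. The swing is therefore not shown to be particular to the members. These are bulk samples, in which fewer cells of a type and less RNA per cell cannot be told apart.

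**Figure D1:**
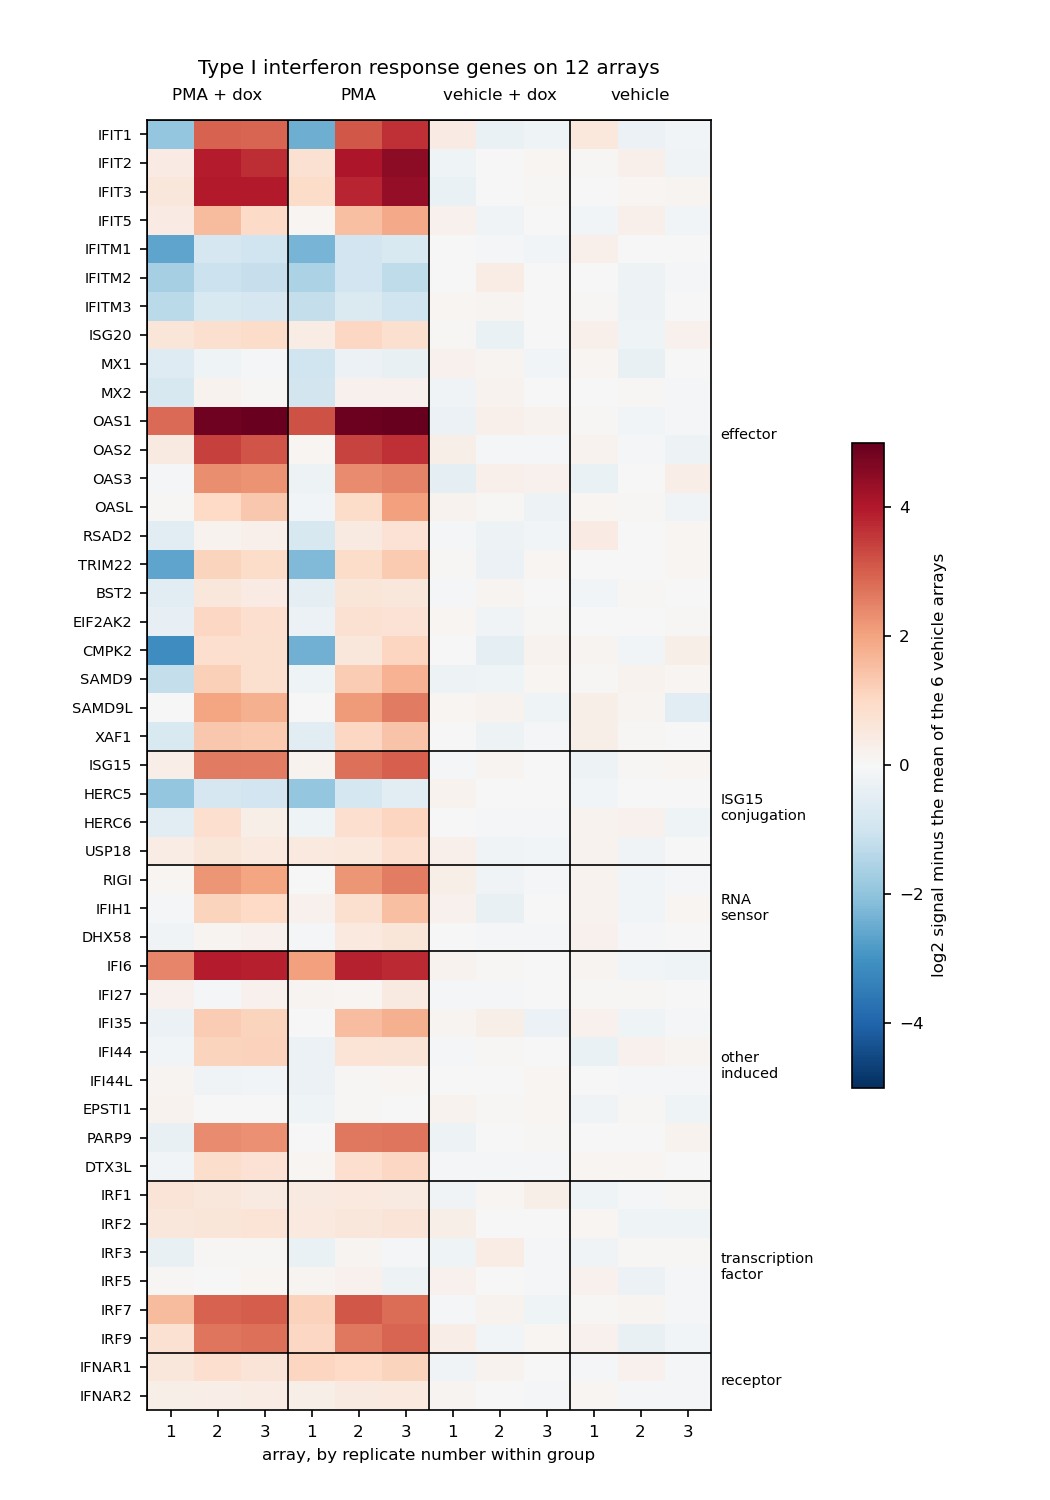
Log2 signal of the 45 members (rows, grouped by role) on the 12 arrays (columns), minus the mean of the 6 vehicle arrays with and without doxycycline. Red is higher and blue is lower; on the PMA arrays numbered 2 and 3 most rows are red, while on the PMA arrays numbered 1 many are pale or blue.

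The receptor chains came first in the pathway, and both rose. IFNAR1, the chain that binds TYK2, had signals of 7.87, 8.14 and 7.95 (log2) in PMA with doxycycline and 8.40, 8.31 and 8.43 in PMA, against 7.13, 7.48 and 7.28 in vehicle with doxycycline and 7.22, 7.52 and 7.23 in vehicle, here and below in the order of replicates 1 to 3. All 6 PMA arrays lay above all 6 vehicle arrays, those numbered 1 included. The difference was 1.05 ± 0.12 (log2, SE) without doxycycline (limma adjusted p = 1.45e-05) and 0.69 ± 0.12 with it (limma adjusted p = 0.00051). The 4 probe sets of IFNAR1 did not share a sign, with differences without doxycycline of 1.05, 0.45, 0.15 and -0.50 in order of falling signal. With the mean of its probe sets IFNAR1 differed by 0.13 with doxycycline and did not pass (limma adjusted p = 0.365). IFNAR2, the high-affinity chain, averaged 9.66 ± 0.05 in PMA with doxycycline and 9.73 ± 0.11 in PMA, against 9.34 ± 0.10 in vehicle with doxycycline and 9.31 ± 0.12 in vehicle (log2, SD, n = 3 each). IFNAR2 rose by 0.43 ± 0.11 without doxycycline and 0.32 ± 0.11 with it (SE). With doxycycline this call was lost under 7 of 22 alternatives. Among them were the mean of its probe sets (0.24, limma adjusted p = 0.0878) and leaving out probe sets of shared sequence (0.24, limma adjusted p = 0.221).

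Of the 6 regulatory factors measured, IRF1, IRF2, IRF7 and IRF9 rose in both comparisons and IRF3 and IRF5 did not pass. The share that rose was 66.7% in each, against 12.7% of all genes without doxycycline and 13.0% with it. IRF7, the amplifier of interferon production, had 7.62, 8.98 and 9.09 in PMA with doxycycline and 7.22, 9.15 and 8.86 in PMA, against 5.99, 6.22 and 5.83 in vehicle with doxycycline and 6.09, 6.18 and 5.98 in vehicle (log2). It was above every vehicle array on all 6 PMA arrays, but the 2 numbered 1 were the lowest of the 6. Its difference was 2.32 ± 0.43 (log2, SE), 5.01-fold, without doxycycline (limma adjusted p = 0.000684) and 2.55 ± 0.43, 5.86-fold, with it (limma adjusted p = 0.000296).

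IRF9, the DNA-binding part of the interferon-activated complex, had 7.26, 9.16 and 9.22 in PMA with doxycycline and 7.51, 9.11 and 9.40 in PMA, against 6.81, 6.36 and 6.58 in vehicle with doxycycline and 6.68, 6.10 and 6.35 in vehicle. The groups did not overlap, and the PMA arrays numbered 1 again lay between the vehicle arrays and the other PMA arrays. IRF9 rose by 2.29 ± 0.49 without doxycycline and 1.96 ± 0.49 with it (log2, SE). IRF1, an activator, and IRF2, its antagonist on shared sites, showed smaller rises that were present on the arrays numbered 1 too: 0.53 ± 0.13 and 0.67 ± 0.12 without doxycycline. IRF1 averaged 7.58 ± 0.09 in PMA with doxycycline and 7.49 ± 0.02 in PMA, against 7.09 ± 0.24 in vehicle with doxycycline and 6.96 ± 0.14 in vehicle. IRF3, which is switched on by phosphorylation rather than by more transcript, averaged 7.03 ± 0.25 in PMA with doxycycline and 7.03 ± 0.24 in PMA, against 7.13 ± 0.31 in vehicle with doxycycline and 7.10 ± 0.15 in vehicle (log2, SD, n = 3 each).

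Among the 22 effectors, 6 rose (27.3%, against 12.7% of all genes) and 3 fell (13.6%, against 18.9%) without doxycycline. With doxycycline 5 rose (22.7%, against 13.0%) and 3 fell (13.6%, against 19.5%). OAS1, which makes the 2′-5′ oligoadenylates that activate RNase L, had the largest difference of all members. Its signals were 7.45, 9.50 and 9.56 in PMA with doxycycline and 7.81, 9.53 and 9.83 in PMA, against 4.35, 4.89 and 4.80 in vehicle with doxycycline and 4.67, 4.50 and 4.56 in vehicle (log2). The lowest PMA array stood well clear of the highest vehicle array. OAS1 rose by 4.48 ± 0.52, 22.3-fold, without doxycycline (limma adjusted p = 1.36e-05) and by 4.15 ± 0.52, 17.8-fold, with it (limma adjusted p = 2.34e-05). Its other probe set differed by 3.24 without doxycycline and 2.98 with it.

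IFIT2 and IFIT3, which form complexes on viral RNA with IFIT1, rose as well. IFIT3 had 6.98, 10.38 and 10.37 in PMA with doxycycline and 7.32, 10.21 and 10.78 in PMA, against 6.07, 6.42 and 6.46 in vehicle with doxycycline and 6.39, 6.50 and 6.55 in vehicle. IFIT2 had 4.66, 8.17 and 7.94 in PMA with doxycycline and 4.99, 8.29 and 8.73 in PMA, against 4.01, 4.26 and 4.32 in vehicle with doxycycline and 4.29, 4.51 and 4.06 in vehicle. In both genes the arrays numbered 1 lay just above the vehicle arrays and far below the other PMA arrays. IFIT3 rose by 2.96 ± 0.85 without doxycycline and 2.93 ± 0.85 with it, and IFIT2 by 3.05 ± 0.90 without doxycycline and 2.73 ± 0.90 with it (log2, SE). The second probe set of IFIT2, of mean signal 5.50 against 5.68, differed by less: 1.10 without doxycycline and 0.57 with it. That of IFIT3 differed by 2.04 without doxycycline and 1.63 with it. Leaving out PMA replicate 2 or 3 ended the calls of both without doxycycline, and leaving out vehicle replicate 3 ended that of IFIT2.

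OAS2, a second enzyme of the OAS family, had 4.97, 7.93 and 7.66 in PMA with doxycycline and 4.60, 7.89 and 8.14 in PMA, against 4.79, 4.46 and 4.45 in vehicle with doxycycline and 4.69, 4.40 and 4.25 in vehicle. Without doxycycline the groups overlapped, because PMA replicate 1 lay below vehicle replicate 1. The difference of 2.43 ± 0.81 (limma adjusted p = 0.034) and that of 2.29 ± 0.81 with doxycycline (limma adjusted p = 0.0445) rested on replicates 2 and 3. They did not pass under 7 of 22 alternatives without doxycycline and 10 of 22 with it. The second brightest probe set of OAS2 differed by 2.58 without doxycycline and 2.28 with it. The dimmest differed by 0.29 without doxycycline and 0.03 with it. IFIT5, an IFIT protein with its own RNA-binding pocket, had 5.12, 6.32 and 5.68 in PMA with doxycycline and 4.83, 6.22 and 6.60 in PMA, against 4.92, 4.56 and 4.70 in vehicle with doxycycline and 4.60, 4.96 and 4.59 in vehicle. This gene rose by 1.17 ± 0.37 without doxycycline, where the groups overlapped, and its difference of 0.98 with doxycycline did not pass. ISG20, an RNA exonuclease, rose by 0.66 ± 0.18 without doxycycline and 0.86 ± 0.18 with it.

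The 3 IFITM genes, whose products hinder the entry of viruses through membranes, fell in both comparisons. IFITM1 had 6.0, 7.77 and 7.64 in PMA with doxycycline and 6.28, 7.67 and 7.85 in PMA, against 8.63, 8.53 and 8.49 in vehicle with doxycycline and 8.86, 8.62 and 8.61 in vehicle. All PMA arrays lay below all vehicle arrays, and the arrays numbered 1 lay lowest. The difference was -1.43 ± 0.42 without doxycycline (limma adjusted p = 0.0176) and -1.42 ± 0.42 with it (limma adjusted p = 0.0179).

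IFITM2 had 9.33, 9.92 and 9.86 in PMA with doxycycline and 9.42, 10.03 and 9.73 in PMA, against 10.96, 11.36 and 10.97 in vehicle with doxycycline and 11.00, 10.75 and 10.93 in vehicle. This gene fell by 1.17 ± 0.18 without doxycycline and 1.40 ± 0.18 with it on the log2 scale, and IFITM3 fell by 0.91 ± 0.16 without doxycycline and 1.05 ± 0.16 with it. The IFITM genes are near-identical in sequence and their probe sets are of the class that can bind transcripts of related genes, so the 3 values are not independent and their assignment to single genes is uncertain.

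The other 13 effectors did not pass without doxycycline. The dynamin-like GTPases MX1 and MX2 and the radical SAM enzyme RSAD2, often used to read an interferon response, were among them, at -0.48 ± 0.20, -0.16 ± 0.28 and -0.06 ± 0.31 (log2, SE) without doxycycline. The probe sets of MX1 and RSAD2 were dim, at percentile 35.7 and 26.3 of all genes' mean signal.

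Of the ISG15 conjugation genes, ISG15 and USP18 rose and HERC5 fell in both comparisons, and HERC6 did not pass. ISG15, a ubiquitin-like modifier, had 8.91, 11.19 and 11.16 in PMA with doxycycline and 8.74, 11.35 and 11.59 in PMA, against 8.51, 8.73 and 8.57 in vehicle with doxycycline and 8.34, 8.66 and 8.69 in vehicle. The arrays numbered 1 exceeded the vehicle arrays by little. The difference was 2.00 ± 0.65 without doxycycline (limma adjusted p = 0.0305) and 1.82 ± 0.65 with it (limma adjusted p = 0.0469). The call was lost under 6 of 21 alternatives without doxycycline and 10 of 21 with it. HERC5, the ligase that attaches ISG15 to proteins, moved the other way, with 7.12, 8.23 and 8.10 in PMA with doxycycline and 7.11, 8.17 and 8.54 in PMA, against 9.21, 9.02 and 9.05 in vehicle with doxycycline and 8.93, 9.04 and 9.06 in vehicle. This gene fell by 1.07 ± 0.31 without doxycycline and by 1.27 ± 0.31 with it. USP18, the protease that removes ISG15 and restrains the receptor, rose by 0.60 ± 0.15 without doxycycline and 0.49 ± 0.15 with it.

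Of the 3 cytosolic RNA sensors, RIGI rose without doxycycline (33.3% of this short list, against 12.7% of all genes) and IFIH1 and DHX58 did not pass. RIGI had 6.40, 8.49 and 8.28 in PMA with doxycycline and 6.31, 8.52 and 8.86 in PMA, against 6.61, 6.13 and 6.22 in vehicle with doxycycline and 6.48, 6.16 and 6.21 in vehicle. The PMA arrays numbered 1 lay within the range of the vehicle arrays and the other 4 lay above it. RIGI differed by 1.61 ± 0.58 without doxycycline (limma adjusted p = 0.0475). The call was lost under 12 of 22 alternatives: with the mean of all its probe sets, where the difference was 0.96 (limma adjusted p = 0.149), without probe sets of shared sequence (0.95, limma adjusted p = 0.283), with a trended robust prior (limma adjusted p = 0.121) and on leaving out any of 9 arrays (up to 0.212).

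IFI6, a small mitochondrial and endoplasmic reticulum protein, was the only one of the 8 other induced members to pass. This is 12.5% in each comparison, near the 12.7% of all genes called higher without doxycycline and 13.0% with it. Without doxycycline 7 of the 8 differences were positive, among them PARP9 (1.69) and IFI35 (1.17), which did not pass. IFI6 is described next. It had 11.08, 12.60 and 12.53 in PMA with doxycycline and 10.70, 12.49 and 12.40 in PMA, against 8.84, 8.71 and 8.64 in vehicle with doxycycline and 8.78, 8.53 and 8.43 in vehicle. The groups were far apart on every array. IFI6 rose by 3.29 ± 0.43, 9.76-fold, without doxycycline (limma adjusted p = 3.48e-05) and by 3.34 ± 0.43, 10.1-fold, with it (limma adjusted p = 2.67e-05). IFI44L, EPSTI1, IFI44 and IFI27 were dim, at percentile 6.77, 12.4, 13.7 and 24.5 of all genes' mean signal.

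**Figure D2:**
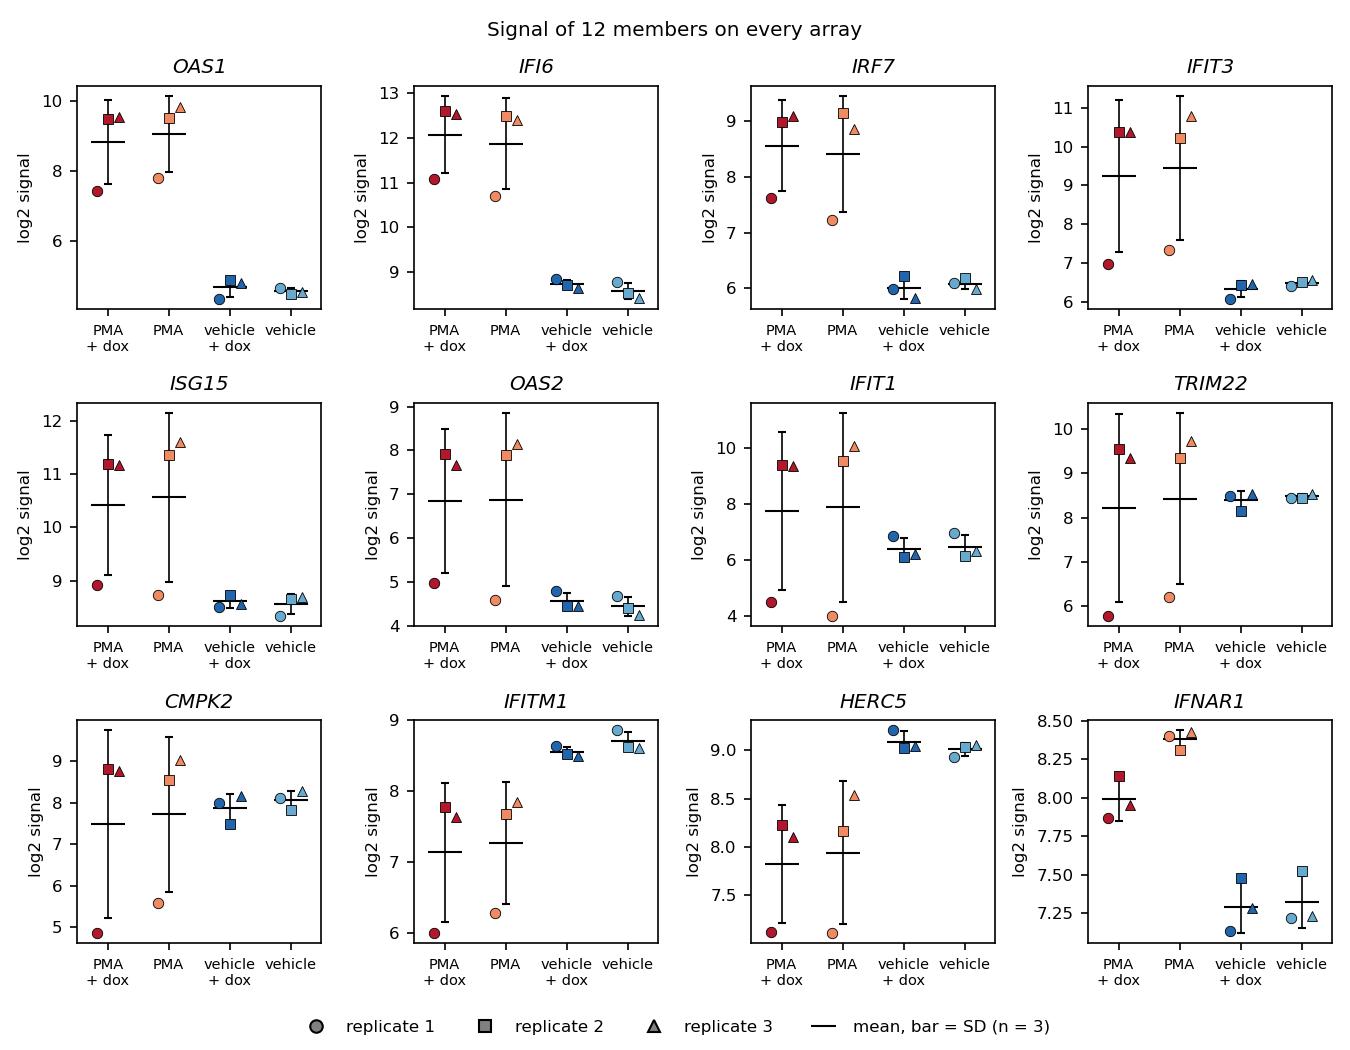
Log2 signal (vertical axes) of 12 members on every array, by group (horizontal axes), with symbols for replicates 1 to 3 and the mean with SD (n = 3). In OAS1, IFI6 and IRF7 all PMA arrays lie above the vehicle arrays, in IFIT1, TRIM22 and CMPK2 the PMA arrays numbered 1 lie below and the others above, and in IFITM1 and HERC5 all PMA arrays lie lower.

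Much of the spread within the PMA groups lay between the arrays numbered 1 and the others. The split by number was examined after the values were seen and is given as a description. On the 4 PMA arrays numbered 2 and 3, 32 members (71.1%) lay above all 6 vehicle arrays, against 15.0% of all genes. Of these 32, 13 lay above on the PMA arrays numbered 1 as well (28.9% of members, 11.3% of genes): OAS1, IFI6, IFIT2, IFIT3, ISG15, ISG20, USP18, IRF1, IRF2, IRF7, IRF9 and both receptor chains. A further 12 (26.7% of members, 3.51% of genes) were not above on both arrays numbered 1, among them OAS2, RIGI, IFIT5, OAS3, OASL, SAMD9L and PARP9.

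The other 7 (15.6% of members, 0.233% of genes) lay below all vehicle arrays on both PMA arrays numbered 1 and above all of them on the other 4. They were IFIT1, TRIM22, CMPK2, XAF1, BST2, EIF2AK2 and HERC6. IFIT1, which recognises RNA caps that lack a methyl group, had 4.51, 9.39 and 9.35 in PMA with doxycycline and 4.0, 9.53 and 10.07 in PMA, against 6.84, 6.11 and 6.21 in vehicle with doxycycline and 6.94, 6.15 and 6.30 in vehicle. By number, PMA minus vehicle was -2.33, 3.29 and 3.13 with doxycycline and -2.94, 3.37 and 3.77 without it (log2). With an SD of 2.81 and 3.36 in the PMA groups, the mean differences of 1.36 and 1.40 did not pass.

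TRIM22, an E3 ligase with antiviral activity, gave -2.71, 1.42 and 0.79 with doxycycline and -2.24, 0.90 and 1.20 without it. CMPK2, a mitochondrial nucleotide kinase that neighbours RSAD2 in the genome, gave -3.13, 1.33 and 0.60 with doxycycline and -2.53, 0.71 and 0.76 without it. In these genes the direction of the PMA difference turned with the replicate number, and it turned alike with and without doxycycline. Same-numbered arrays with and without doxycycline deviated together over all genes, so this likeness is no independent repeat. For number 1 the correlation was 0.64 between both PMA groups and 0.57 between both vehicle groups. OAS3, a further OAS enzyme, gave 0.35, 2.10 and 2.02 with doxycycline and 0.06, 2.37 and 2.13 without it, and PARP9, which acts with DTX3L in ADP-ribosylation, gave -0.13, 2.39 and 2.23 with doxycycline and -0.06, 2.62 and 2.49 without it. IFIT1, TRIM22, CMPK2, OAS3 and PARP9 were chosen for display after their values were seen.

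Counted over the genes, 24 members (53.3%) were higher by at least 1 (log2) on replicates 2 and 3 than on replicate 1 in both PMA groups, against 117 of all genes (0.592%). In both vehicle groups this held for 0 members and 18 genes (0.091%). The vehicle arrays numbered 1 also had the high ACTB 3′ minus 5′ signal (2.40 with doxycycline and 1.99 without). The median signal over the members was 6.40, 8.41 and 8.10 in PMA with doxycycline and 6.80, 8.49 and 8.72 in PMA, against 6.84, 6.42 and 6.58 in vehicle with doxycycline and 6.92, 6.71 and 6.69 in vehicle. The part of RNA quality in the gap was not tested, and each PMA group has 1 such array.

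The size of the PMA difference by number was also set beside that of other genes. The genes called in both PMA comparisons were chosen by calls that used the arrays numbered 1, so their medians by number are a description that the choice itself shapes. Over the 2101 genes called higher in both PMA comparisons, the median PMA minus vehicle difference was 0.79 (log2) on number 1 and 0.96 on numbers 2 and 3. Over the 14 members among them it was 0.66 on number 1 and 2.77 on numbers 2 and 3. The 3325 genes called lower in both comparisons had medians of -0.79 and -0.88, and the 4 members among them -1.78 and -0.82. Over all 45 members the medians were -0.12 on number 1 and 0.87 on numbers 2 and 3, beside -0.03 and 0.02 over all genes. Both PMA comparisons of a number come from different arrays, but these arrays deviated together within agents, so the comparisons are not independent. The members of 1 array also share that array.

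**Figure D3:**
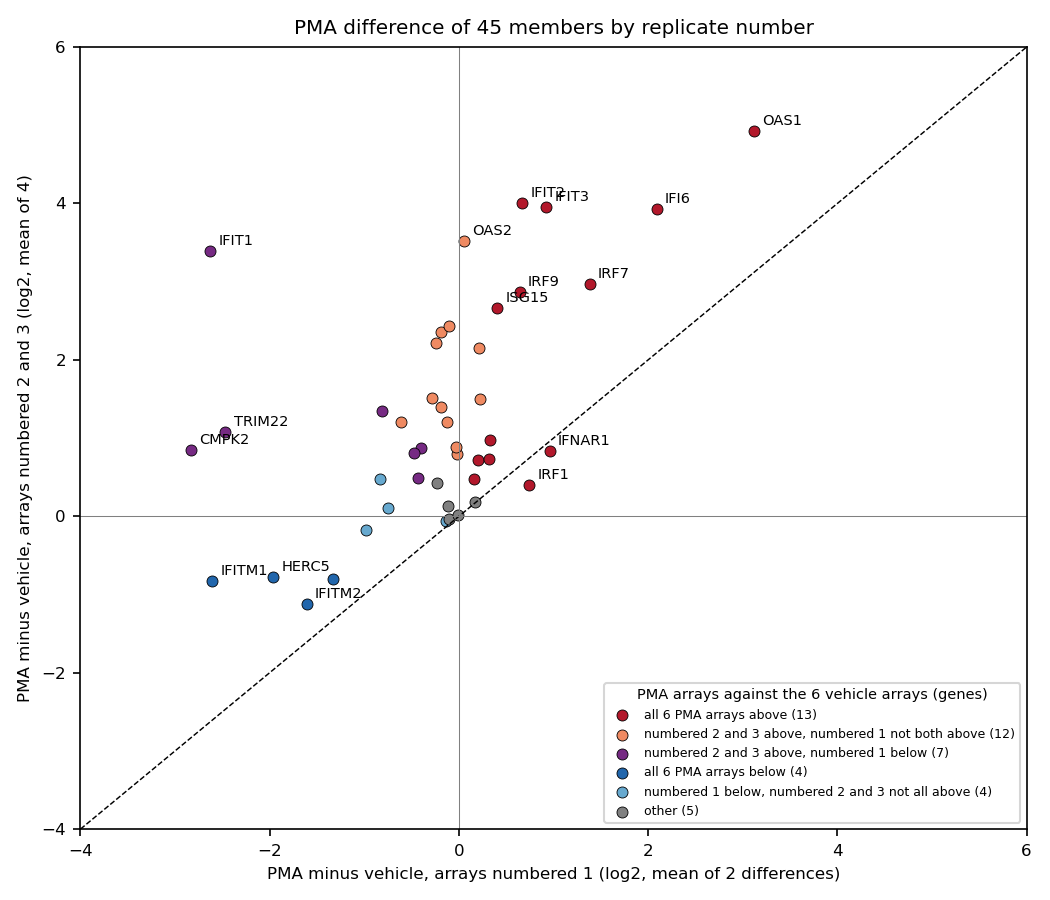
PMA minus vehicle (log2) of the 45 members on arrays numbered 1 (horizontal axis, mean of the differences with and without doxycycline) and on arrays numbered 2 and 3 (vertical axis, mean of 4 differences), with colours for how the PMA arrays lie against the 6 vehicle arrays; the dashed line marks equality. Most points lie above the line, IFIT1 at -2.63 and 3.39 farthest, and IRF1 and IFNAR1 lie below it.

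Every other member fell into 3 remaining patterns. IFITM1, IFITM2, IFITM3 and HERC5 (8.89% of members, 17.5% of genes) lay below all vehicle arrays on all 6 PMA arrays. MX1, MX2, RSAD2 and IRF3 (8.89% of members, 6.48% of genes) lay below on the PMA arrays numbered 1 and not above on all of the others. DHX58, IFI27, IFI44L, EPSTI1 and IRF5 (11.1% of members, 61.0% of genes) had no such pattern. MX2, for example, gave -0.61, -0.02 and 0.03 with doxycycline and -0.89, 0.16 and 0.27 without it, and RSAD2 -0.42, 0.44 and 0.40 with doxycycline and -1.23, 0.45 and 0.62 without it. Of the members not yet described, XAF1, which promotes cell death, gave -0.75, 1.61 and 1.43 with doxycycline and -0.86, 0.99 and 1.40 without it, and SAMD9L, a relative of SAMD9, -0.12, 1.81 and 1.98 with doxycycline and -0.35, 1.98 and 3.11 without it. IFIH1, the sensor of long double-stranded RNA, gave -0.32, 1.49 and 0.99 with doxycycline and 0.05, 0.93 and 1.41 without it.

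IRF1 and IFNAR1 were without the gap: IRF1 differed by 0.74 on number 1 and 0.40 on numbers 2 and 3, and IFNAR1 by 0.96 and 0.83 (PMA minus vehicle, means over both PMA comparisons). OAS1, with 3.12 and 4.92, and IFI6, with 2.09 and 3.93, had the gap together with a large difference on the arrays numbered 1. IFITM1 and HERC5 were lower in PMA at every number, at -2.61 and -0.83 for IFITM1 and -1.96 and -0.78 for HERC5. Within the PMA groups both were higher on numbers 2 and 3 than on number 1, by 1.70 with doxycycline and 1.49 without it for IFITM1 and by 1.05 with doxycycline and 1.24 without it for HERC5.

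The second question was whether switching on the ZXDC hairpin altered these genes. In PMA-treated cells 0 of the 45 members passed with doxycycline against without (limma), where 0.00506% of all genes did, and 1 member had an unadjusted p under 0.05, where 6.14% of all genes did. The members' differences ran from -0.67 to 0.35 (log2), with a median of -0.12, and 33 of 45 were negative. Over all genes the median was -0.01, and 10197 of 19775 were negative. The members were read on the same arrays, so their signs are not independent. In vehicle-treated cells 0 members passed, with 0.0% of all genes called and 0 members at an unadjusted p under 0.05, where 2.58% of all genes were; the differences ran from -0.33 to 0.23. The interaction, which asks whether the PMA difference itself changed with doxycycline, also called 0 members (0.0% of all genes), with 0 at an unadjusted p under 0.05 (2.62% of all genes). These counts come from the fit without pairing.

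In the fit without pairing, IFNAR1 was the member with the smallest p in PMA. It had 7.87, 8.14 and 7.95 in PMA with doxycycline, against 8.40, 8.31 and 8.43 in PMA, and these groups did not overlap, a separation shared by 5.9% of all genes in this direction. The difference was -0.39 ± 0.12 (log2, SE; 95% interval -0.66 to -0.12; limma adjusted p = 0.623), against -0.03 ± 0.12 in vehicle. Its second brightest probe set differed by -0.42 in PMA and -0.05 in vehicle, and the other 2 by -0.10 and 0.04 in PMA.

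The same-numbered arrays with and without doxycycline deviated together, so a fit with the 6 pairs as blocks bears on this comparison. In PMA the median half-width of the members' 95% intervals was 0.26 with the pairs and 0.70 without them, and the paired fit also called 0 members (0.268% of all genes). At an unadjusted p under 0.05 it had 8 members, against 13.2% of all genes: SAMD9, IFNAR1, PARP9, IFI35, IFIT2, HERC6 and DHX58 lower with doxycycline, and IFI44 higher. SAMD9, an endosomal antiviral protein, had 6.05, 8.41 and 8.04 in PMA with doxycycline, against 7.04, 8.50 and 8.97 in PMA. The groups overlapped, while each pair was lower with doxycycline. Its paired difference was -0.67 ± 0.16 (log2, SE, limma with the pair block, adjusted p = 0.117). Once replicate 1 of PMA with doxycycline was left out of the unpaired fit, the difference was 0.06. That fit kept PMA replicate 1, the low array of the same pair, so the 0.06 is no paired difference. Pairs 2 and 3 were each lower with doxycycline.

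In vehicle the paired fit called 0 members (0.0% of all genes), and 2, IRF2 and RSAD2, had an unadjusted p under 0.05. For the interaction it called 0 (0.00506% of all genes), and 4, IFI35, IFI44, IFNAR1 and IRF9, were under that level. The shares of all genes under that level are not given here for vehicle and the interaction. In the pair-blocked fit the 95% interval of 44 of the 45 members in PMA, and of 45 of 45 in vehicle, lay within 1 log2 unit of 0; without the block these counts were 23 and 27. The missing calls do not show that the groups were equal.

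In the fit without the pair block, DHX58, SAMD9, MX1 and HERC6 followed IFNAR1 in order of p in PMA. DHX58, a regulator of the RNA sensors, had 5.54, 5.86 and 5.94 in PMA with doxycycline, against 5.62, 6.20 and 6.31 in PMA, and differed by -0.27 ± 0.17 (log2, SE). MX1 had 4.73, 5.15 and 5.26 in PMA with doxycycline, against 4.35, 5.07 and 4.98 in PMA, and differed by 0.25 ± 0.20. HERC6, a relative of HERC5, had 4.69, 6.08 and 5.52 in PMA with doxycycline, against 5.03, 6.07 and 6.30 in PMA, and differed by -0.37 ± 0.32. In all 3 the groups overlapped.

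In vehicle the smallest p without the pair block belonged to EPSTI1, IRF2, IFITM2, RSAD2 and IRF1, with differences of 0.21, 0.23, 0.20, -0.33 and 0.13 (log2). EPSTI1 had 3.63, 3.52 and 3.58 in vehicle with doxycycline, against 3.30, 3.52 and 3.26 in vehicle. IRF2 had 8.25, 7.94 and 7.97 in vehicle with doxycycline, against 8.03, 7.73 and 7.72 in vehicle. RSAD2 had 4.39, 4.25 and 4.35 in vehicle with doxycycline, against 4.91, 4.48 and 4.59 in vehicle. The RSAD2 groups did not overlap, as was the case in this direction for 3.47% of all genes, and the signals were dim. For the interaction the smallest p, again without the pair block, belonged to IFNAR1 (-0.36 ± 0.18), IRF2 (-0.16 ± 0.17), IFITM2 (-0.23 ± 0.26), IFI44 (0.38 ± 0.44) and IFI35 (-0.51 ± 0.60).

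**Figure D4:**
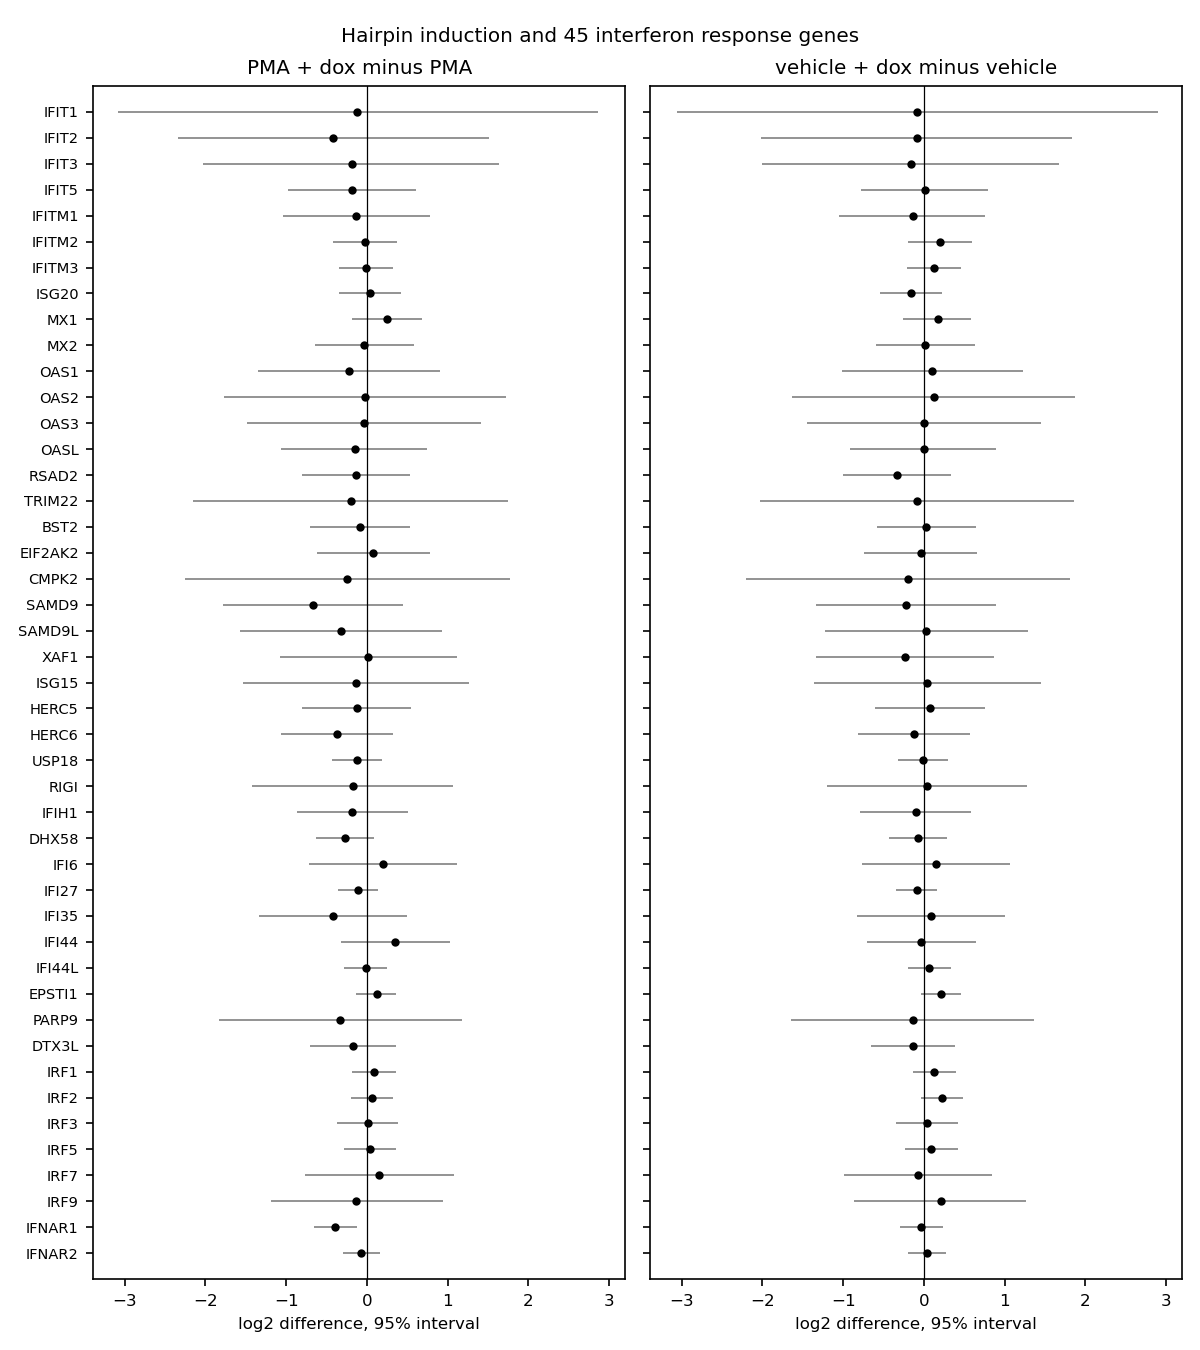
Difference with doxycycline minus without (log2, horizontal axes) of the 45 members in PMA-treated cells (left) and vehicle-treated cells (right), with 95% intervals from the fit without a pair block. The points lie between -0.67 and 0.35 in PMA and between -0.33 and 0.23 in vehicle, and in PMA the interval of IFNAR1 lies below 0.

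Other genes of the pathway were taken from 3 lists. Of 20 interferon genes, 18 were measured and 0 passed in either PMA comparison, with 1 at an unadjusted p under 0.05 without doxycycline (38.6% of all genes) and 2 with it (39.2%). Their signals lay between 2.34 and 5.27 on all arrays, and no mean exceeded percentile 34.0 of all genes. IFNB1, the interferon most cells make first, averaged 4.10 ± 0.16 in PMA with doxycycline and 4.11 ± 0.07 in PMA, against 3.80 ± 0.09 in vehicle with doxycycline and 4.0 ± 0.13 in vehicle (log2, SD, n = 3 each). Signals this low do not tell whether a transcript was present, and interferon protein was not measured.

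Of 27 signalling and induction genes, 26 were measured, and 8 rose and 1 fell without doxycycline, 7 and 1 with it. The share called, 34.6% without doxycycline and 30.8% with it, was near the 31.7% and 32.5% of all genes. The median log2 difference of the list was 0.17 without doxycycline and 0.12 with it. JAK1, the kinase on the IFNAR2 chain, averaged 11.67 ± 0.15 in PMA with doxycycline and 11.52 ± 0.10 in PMA, against 10.46 ± 0.11 in vehicle with doxycycline and 10.45 ± 0.13 in vehicle. JAK1 rose by 1.07 ± 0.12 without doxycycline (limma adjusted p = 7.28e-06). IFNGR1 and IFNGR2, the chains of the interferon gamma receptor, rose by 1.13 ± 0.12 and 1.21 ± 0.16. IRF8, a myeloid regulatory factor, was the gene that fell, by 1.06 ± 0.15.

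A list of 59 further interferon-induced genes had 53 measured. Of these, 18 rose (34.0%, against 12.7% of all genes) and 7 fell (13.2%, against 18.9%) without doxycycline. With doxycycline 17 rose (32.1%, against 13.0%) and 6 fell (11.3%, against 19.5%). The median log2 difference was 0.32 without doxycycline and 0.24 with it. Within this list 10 genes had the gap of at least 1 (log2) between numbers 2 and 3 and number 1 in both PMA groups. CCL8, a chemokine, had 3.53, 6.07 and 6.45 in PMA with doxycycline and 3.29, 7.40 and 8.10 in PMA, against 3.49, 2.96 and 3.38 in vehicle with doxycycline and 3.13, 3.38 and 3.19 in vehicle. This gene rose by 3.03 ± 0.96 without doxycycline and its difference of 2.07 with doxycycline did not pass. SLFN5, by contrast, was high on every PMA array, with 8.96, 9.17 and 8.61 in PMA with doxycycline and 9.16, 8.38 and 8.98 in PMA, against 6.82, 6.06 and 6.80 in vehicle with doxycycline and 6.80, 6.61 and 6.36 in vehicle. APOBEC3B, a DNA cytidine deaminase, fell by 2.36 ± 0.16 without doxycycline and 2.57 ± 0.16 with it.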

How the data were processed

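Biotinylated cRNA of 12 cultures was made from 100 ng of RNA with a kit that primes at the 3′ end, per the labels' protocols. The deposited values are log2 signals, computed by the authors with RMA (per the submitters' processing notes), whose version is not given in the sources read. No value was rescaled. Of 54675 probe sets, 41091 paired with 1 gene, 1801 with several and 11721 with none, and 62 were controls; the last 3 kinds were left out of the gene tests. Symbols were updated through Entrez numbers for 41037 probe sets, leaving 19775 genes.

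A model of 4 group means was fitted to the 12 arrays by limma 3.58.1 (lmFit, eBayes; R 4.3.3; 8 residual and 5.6 prior degrees of freedom), and p-values were adjusted by Benjamini-Hochberg over all genes, with calls under 0.05. The procedure was tested on simulated data, drawn independently for each gene and array, for PMA against vehicle alone. Those data had no pairs and no split by replicate number, so the test does not cover either. Tables and intervals (95%) were computed in Python 3.11.15. Precision is limited by the 3 arrays per group.

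Members and lists were chosen with earlier results of these data known. Values on every array were given for called members, up to 12 by size of the PMA difference without doxycycline and 5 per other comparison, and for the 5 members of smallest p where none was called; members printed beyond that were chosen after their values were seen. Alternatives changed the probe set rule, filter, scaling, spread, pairing and arrays used.

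Same-numbered arrays were checked for pairing through their deviations from group means, over all genes. The correlations were 0.64, 0.29 and 0.32 between both PMA groups and 0.57, 0.25 and 0.31 between both vehicle groups, all over the limit of 0.1, so arrays were taken as paired within agents. Across agents, PMA with doxycycline and vehicle with doxycycline gave 0.20, 0.07 and 0.06, and PMA and vehicle gave 0.16, -0.01 and 0.15. Not all of these passed the limit, so the 2 PMA comparisons were left unpaired. Of the groups not compared directly, PMA and vehicle with doxycycline gave 0.23, 0.27 and 0.14, and PMA with doxycycline and vehicle gave 0.12, 0.10 and 0.12.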

Additional observations from a re-analysis of the deposited data

How the results depend on the processing

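In PMA against vehicle, 11 of the 20 members called without doxycycline (OAS1, IFI6, IRF7, IRF9, IFITM2, IFITM3, IFNAR1, IFNAR2, IRF1, IRF2 and USP18) and 9 of the 18 called with it passed under every alternative that measured them. Without doxycycline the count of 20 became 13 (12 higher, 1 lower, of 37 measured) without probe sets of shared sequence, 14 with a trended robust prior, 25 with the replicate block over all groups and 38 (34 higher, 4 lower) on arrays numbered 2 and 3 alone, where the spread comes from 2 arrays per group. With doxycycline the count of 18 became 14, 24 and 36 under the last 3 of these, and 31 with array weights. Leaving out 1 array gave 13 to 29 without doxycycline and 12 to 29 with it: 13 without PMA replicate 2, where 9 rose, 14 without PMA replicate 3, where 10 rose, 29 without PMA replicate 1, where 27 rose, and 12 without replicate 2 and 29 without replicate 1 of PMA with doxycycline, where 8 and 26 rose. With doxycycline, 9 rose without replicate 3 of PMA with doxycycline and without replicate 2 or 3 of vehicle with doxycycline. Leaving out 1 array ended the call without doxycycline of OAS2 and ISG15 (each vehicle array, PMA replicates 2 and 3; adjusted p up to 0.159 and 0.146), IFIT5 (the same arrays but for vehicle replicate 2; up to 0.132), IFIT2 (PMA replicates 2 and 3, vehicle replicate 3; up to 0.0921), IFIT3 (PMA replicates 2 and 3; up to 0.0842), RIGI (9 arrays in turn; up to 0.212), IFITM1 (replicate 1 of PMA or vehicle; up to 0.0729), HERC5 (PMA replicate 1, vehicle replicates 2 and 3; up to 0.0641) and ISG20 (replicate 2 of PMA or vehicle; up to 0.0622). With doxycycline it ended those of OAS2 and ISG15 (each of 8 arrays; up to 0.174 and 0.173), IFIT2 (5 arrays; up to 0.134), IFNAR2 (4 arrays; up to 0.109), USP18 (3 arrays; up to 0.0791), IFIT3 (replicate 2 or 3 of PMA with doxycycline; up to 0.0775) and IFITM1 (replicate 1 of PMA with doxycycline; 0.0674), all by limma. The shares of all genes called under these alternatives are not given here. The causes were not tested. With the mean of all probe sets IFNAR1, IFNAR2, OAS2 and ISG15 were not called with doxycycline.

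For doxycycline and the interaction 0 members were called under each alternative, the replicate block by pair included (0 in each comparison). In PMA the SAMD9 difference ran from -1.23 (without PMA replicate 1) to 0.06 (without replicate 1 of PMA with doxycycline) when 1 array was left out. Both of these fits kept the other array of the pair, which was the lowest of its group. In the interaction IFI44 turned to -0.06 without probe sets of shared sequence. The cause was not tested.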

Other observations

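Genes outside the interferon set also had the gap between replicates in the PMA groups, and the following were chosen after their values were seen. PPBP, a platelet chemokine, had 3.65, 7.62 and 7.96 in PMA with doxycycline and 3.96, 8.47 and 8.86 in PMA, against 2.78, 2.89 and 3.15 in vehicle with doxycycline and 2.94, 3.17 and 2.79 in vehicle (log2, replicates 1 to 3). VSIG4, a complement receptor of macrophages, had 5.22, 8.26 and 8.27 in PMA with doxycycline and 6.16, 8.89 and 9.22 in PMA, against 4.56, 4.71 and 4.67 in vehicle with doxycycline and 4.65, 4.94 and 4.40 in vehicle. The PMA arrays numbered 1 lay above the vehicle arrays in both genes and far below the other PMA arrays. The chemokine CCL7 had 6.64, 8.57 and 8.98 in PMA with doxycycline and 7.09, 9.58 and 9.88 in PMA, against 4.57, 3.89 and 4.42 in vehicle with doxycycline and 4.49, 4.52 and 4.60 in vehicle. RAB7B, a small GTPase of late endosomes, had 4.34, 6.80 and 6.94 in PMA with doxycycline and 5.40, 8.02 and 7.72 in PMA, against 6.63, 6.57 and 6.04 in vehicle with doxycycline and 7.11, 6.30 and 6.55 in vehicle. Like IFIT1, it was below every vehicle array on the PMA arrays numbered 1 and, without doxycycline, above every vehicle array on the others.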
